A study of Rattus norvegicus with 12 samples.

Results

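The 7 lungs of streptozotocin-treated rats were compared with each other, to describe which genes differed most from one diabetic animal to the next and which genes followed the same order of animals. They were the 7 of 12 arrays titled as diabetic lung, each from 1 animal. Streptozotocin kills pancreatic beta cells, so the animals lack insulin and the model is one of insulin deficiency. All animals were male Wistar rats. Those of the diabetic group had been injected intraperitoneally at 8 weeks of age, and lungs were taken at 12 weeks, after 4 weeks of diabetes and an overnight fast. The 5 normal animals, injected with buffer at the same age, appear here only as a range or an SD beside a value, with no test. Each array was hybridized with RNA of both whole lungs, so that fewer cells of a type and less RNA per cell cannot be told apart in any value below. Signals are MAS 5.0 intensities of Affymetrix RAE 230A arrays on a linear scale, and differences are given on the log2 scale.

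Of 15923 probe sets, 12783 named a single gene. A gene was kept if a probe set naming it had a mean signal of at least 200 over the 7 diabetic arrays, which 7630 probe sets of 6712 genes did, and its brightest probe set stood for it. Spread was measured as the SD of log2 signal over the 7 animals. Shared variation was measured as Spearman's rho over the same 7 animals with each of 5 genes, Col3a1, Lcn2, Gpnmb, Xdh and Lbp. A gene is said to vary with one of them at a rho of 0.75 or more and to vary against it at -0.75 or less. The genes below were chosen by these measures, SD and rho over the same 7 arrays, which are therefore given as descriptions with no test. All points of a correlation share the same 7 arrays and the scaling of each array, and all named genes come from the same lungs.

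The 5 genes stand for different functions of the lung. Col3a1 encodes the chain of type III collagen, a fibrillar collagen that fibroblasts lay down with type I collagen. Lcn2 encodes lipocalin 2, an acute phase protein of neutrophils, macrophages and epithelium that binds bacterial siderophores. Gpnmb encodes a glycoprotein of lysosome-rich, lipid-laden macrophages. Xdh encodes xanthine dehydrogenase, which makes uric acid and, in its oxidase form, reactive oxygen species. Lbp encodes the protein that hands bacterial lipopolysaccharide to the receptor CD14. Whole lung also holds alveolar type I and type II cells, endothelium, smooth muscle and blood cells, so the level of a gene in such tissue depends on the make-up of cells as well as on each cell's activity.

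The markers of lung were bright in all 7 diabetic animals. Sftpa1, a surfactant protein of alveolar type II cells, had signals of 18265 to 24069, and Sftpd, another surfactant protein, of 6858 to 12163. Of 16 markers of cardiac muscle 1 passed the minimum signal, of 17 of skeletal muscle 1, and of 9 of thyroid and oesophagus none. Each array had the same trimmed mean of 500.1, and median signals were 252.7 to 265.6. Diabetic animal 6 stood apart from the other 6. Its mean Pearson r with the other diabetic arrays was 0.945, against 0.961 to 0.970 for the others, and the ratio of 3' to 5' signal, which rises as RNA degrades, was 1.30 for GAPDH against 1.10 to 1.17, and 2.85 for beta-actin against 1.77 to 2.25. The normal lungs had ratios of 1.23 to 1.44 for GAPDH and of 1.63 to 2.75 for beta-actin. Where a named rho passed a limit only with animal 6 in, or an SD given for a gene lay largely in it, the value without it is given beside the gene.

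Col3a1 had a signal of 5295 in diabetic animal 1, 4498 in animal 2, 3889 in animal 3, 5894 in animal 4, 6059 in animal 5, 1656 in animal 6 and 6371 in animal 7. Animal 6 was far below the rest, and all 7 lay below the 8249 to 9243 of the normal lungs. Lcn2 had a signal of 9121 in animal 1 and 9757 in animal 2, of 2867, 3709 and 2940 in animals 3, 4 and 7, and of 1317 and 1442 in animals 5 and 6. Only animals 1 and 2 exceeded the normal range of 2224 to 3749, and only animals 5 and 6 fell under it. Gpnmb had its highest signals in the same 2 lungs, 6925 in animal 1 and 7171 in animal 2. In animals 3 to 7 it was 2628, 2888, 2068, 2724 and 2165, against a normal range of 1998 to 2702.

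Xdh had a signal of 7396 in animal 3 and 7112 in animal 6, and of 3949, 2908, 3514, 2554 and 3108 in animals 1, 2, 4, 5 and 7, where normal lungs had 2446 to 2681. The 2 lungs of highest Xdh were thus other ones than the 2 of highest Lcn2 and Gpnmb. Lbp had a signal of 940 in animal 6 and of 551, 465, 480, 543, 510 and 544 in animals 1 to 5 and 7, all above the normal 275 to 357. The SD of log2 signal was 1.14 for Lcn2, 0.76 for Gpnmb, 0.68 for Col3a1, 0.62 for Xdh and 0.34 for Lbp. Without animal 6 it was 1.10, 0.82, 0.28, 0.54 and 0.10, so that most of the spread of Col3a1 and Lbp lay in that animal. Each of the 5 genes was read by 1 probe set.

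**Figure D1:**
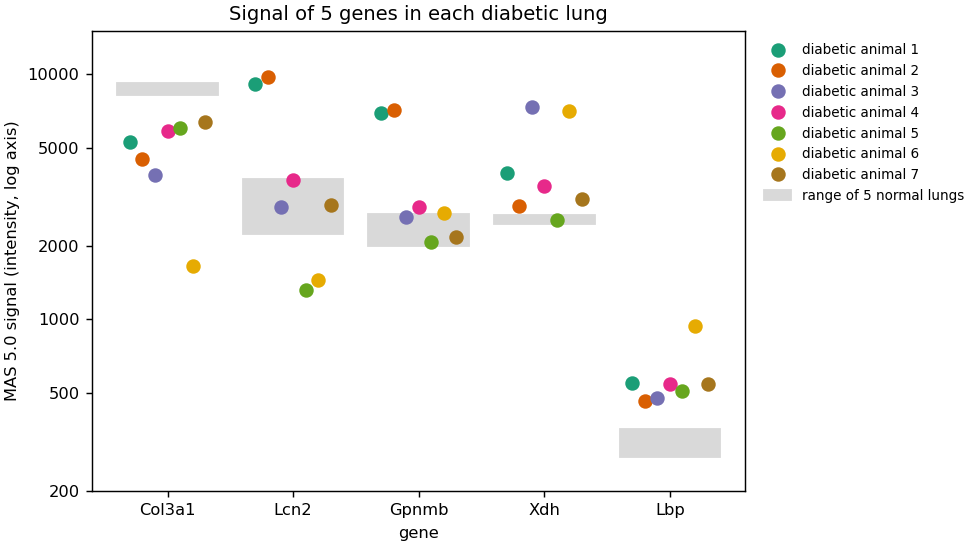
MAS 5.0 signal on a log axis of Col3a1, Lcn2, Gpnmb, Xdh and Lbp, with 1 point for each of the 7 diabetic lungs and a grey box from the lowest to the highest of the 5 normal lungs. Animals 1 and 2 are highest for Lcn2 and Gpnmb, animals 3 and 6 for Xdh, and animal 6 is lowest for Col3a1 (1656) and highest for Lbp (940).

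Among the 10 pairs of these 5 genes only Lcn2 and Gpnmb followed nearly the same order of animals, with a rho of 0.86 and a Pearson r of 0.90. Leaving out each animal in turn gave a rho of 0.77 to 0.94. Col3a1 and Xdh ran in opposite orders, with a rho of -0.68 and -0.54 to -0.89 when single animals were left out. Col3a1 and Lbp had a rho of -0.04 but an r of -0.81, since animal 6 was lowest for the former and highest for the latter, and without animal 6 the rho was 0.54. Xdh and Lbp had a rho of 0.36, which became 0.89 without animal 3. The remaining 6 pairs had a rho of -0.43 to 0.14.

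The stretch before the transcript start was available for Lcn2, Gpnmb and Xdh in RefSeq's table of promoters (build GRCr8). It is shown because 2 of the 3 genes shared their order of animals and the third did not. The 200 bases before each start were searched on both strands, and capitals mark each match. The TATA box was searched for as TATAAA. The CCAAT box was searched for by its name's letters. An NF-kappa B kind of site was searched for as GGAANNTCC, a C/EBP kind of site as TTNNGNAA and an E-box as CACGTG. The windows lie at chr3:36081852-36081980 on the minus strand for Lcn2, chr4:79340928-79341127 on the plus strand for Gpnmb and chr6:27282119-27282318 on the plus strand for Xdh. For Lcn2 the 71 bases next to the start of that transcript lie inside the annotated gene and are left out, which leaves 129.
Lcn2: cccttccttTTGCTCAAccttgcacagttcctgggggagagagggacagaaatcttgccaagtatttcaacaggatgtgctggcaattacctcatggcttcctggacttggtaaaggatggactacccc
Gpnmb: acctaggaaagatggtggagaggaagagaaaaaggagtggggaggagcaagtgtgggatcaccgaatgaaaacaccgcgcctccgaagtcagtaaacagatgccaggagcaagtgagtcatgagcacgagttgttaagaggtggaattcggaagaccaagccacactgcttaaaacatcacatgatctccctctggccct
Xdh: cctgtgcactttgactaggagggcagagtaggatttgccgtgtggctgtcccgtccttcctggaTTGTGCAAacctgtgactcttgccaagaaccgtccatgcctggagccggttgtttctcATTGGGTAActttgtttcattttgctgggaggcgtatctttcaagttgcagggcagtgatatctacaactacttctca
Lcn2 held 1 C/EBP kind of site, 191 bases before the start. Xdh held 2, at 136 and 77 bases, the nearer of which overlaps a CCAAT box read on the minus strand, and Gpnmb held no match. Of 33469 such windows 30.5% held the C/EBP kind of site, 29.2% the CCAAT box, 10.4% the TATA box, 4.68% the E-box and 2.74% the NF-kappa B kind of site. These are matches of letters in a window, and no binding was measured.

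The median SD of log2 signal over the 6712 genes was 0.175 in the diabetic lungs and 0.165, for the same genes, in the normal ones. An SD of at least 0.5 was chosen as the limit for a variable gene, and 182 genes (2.71%) reached it in the diabetic lungs. In the normal lungs 107 did, 32 of them the same genes, and with 5 against 7 animals these counts were not tested. Dim genes varied more than bright ones, with a median SD of 0.215 at mean signals of 200 to 300 and of 0.135 from 5000 up. The gene just inside the limit was Slc16a12 at 0.5003, and the one just outside was Cmtm3 at 0.4998. Diabetic animal 6 was the lowest animal for 72 of the 182 genes (39.6%), and animal 3 was the highest for 38 of them (20.9%). Over all genes animal 6 was highest for 25.1% and lowest for 24.2%, against 10.1% to 16.0% and 9.07% to 19.0% for the other 6.

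The largest SD, 1.60, was that of Cyp2e1, a cytochrome P450 that oxidizes ethanol, acetone and other small molecules and is known to rise in the liver with ketosis. Its signal was 2906 in animal 3 and 2530 in animal 6, and 248 to 320 in the other 5, so that the 2 lungs of high Xdh were also the 2 of high Cyp2e1, with nothing in between. The normal lungs had 171 to 494. Cyp2a3, a P450 of lung and nasal tissue, was 1873 in animal 6 against 207 to 428 in the rest, and its SD of 1.09 was 0.36 without that animal. Cyp1a1, the P450 induced through the aryl hydrocarbon receptor, ran from 107 in animal 3 to 1066 in animal 7 with a median of 637. The normal lungs spread nearly as far, from 128 to 740, with an SD of 1.05 against 1.27.

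Spp1, or osteopontin, a secreted phosphoprotein of macrophages and bone, was next to Cyp2e1 with an SD of 1.44. Its lowest signal was 31.8 in animal 3, the median 207 and the highest 726 in animal 1. Signals far under the array medians of 252.7 to 265.6 occurred in several of the 20 genes of largest SD. Differences at such low signals weigh heavily on the log2 scale. With a pseudocount of 64, 14 of the 20 remained. Mmp12, the elastase of macrophages, was 437 in animal 1 and 616.5 in animal 2, and 70.6 to 177 in the other 5. Retnla, a resistin-like protein of alternatively activated macrophages and airway epithelium, ran from 345 in animal 6 to 2846 in animal 4 with a median of 1841, and its SD of 1.10 was 0.71 without animal 6. Tpsb2, a tryptase of mast cells, was 51.2 in animal 1 and 55.7 in animal 5, and 262 to 370 in the other 5.

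Of the 20 genes 3 are in the list of interferon-induced genes, Mx1, Mx2 and Ifit3. Mx1, an antiviral GTPase, was 2154 in animal 3, 843 in animal 1, 211 in animal 2 and 271 in animal 6, and between 380 and 476 in the rest. Mx2, its paralog, was 1242 in animal 3 and 115 in animal 2. Ifit3, which binds viral RNA complexes, was 1998 in animal 3, 834 in animal 1 and 254 to 403 in the other 5, and Slfn4, a Schlafen gene of myeloid cells, was 5114, 2835 and 808 to 2208. Usp18, the protease that removes ISG15 from proteins, was just outside the 20 with an SD of 0.97 and again had its highest signal, 2098, in animal 3. Ly6i, a member of the Ly6 family, was 534 in animal 6, 873 in animal 3 and 4027 in animal 2.

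The other 8 genes of the 20 include Lcn2 itself and several in which 1 animal was far from the others. Mybpc3, a myosin-binding protein of heart muscle, was 41.9 in animal 6 and 219 to 322 elsewhere, and its SD of 1.04 was 0.22 without animal 6. Ogfr, the opioid growth factor receptor, was 48.8 in animal 2 and 389 to 736 elsewhere. Vps33a, a lysosomal tethering protein, was 48.2 in animal 4 and 272 to 520 elsewhere. C10h17orf49 was low in animals 2 and 7, at 56.5 and 64.4 against 235 to 410. Ooep, Rab15 and Pik3r1 had SDs of 1.14, 1.10 and 1.05. In Pik3r1 and Rab15 the 5 normal lungs varied as much, with SDs of 1.12 and 1.21, whereas the normal SD of Ooep was 0.16.

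**Figure D2:**
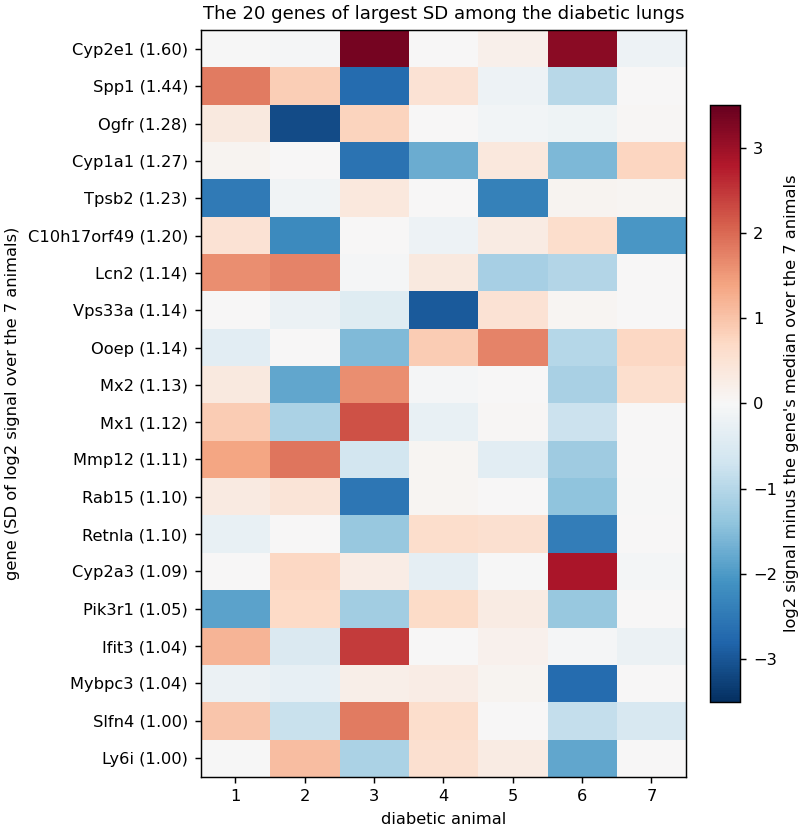
Log2 signal of the 20 genes of largest SD (rows, SD in brackets) in each of the 7 diabetic animals (columns), as the difference from the gene's median over the 7. Cyp2e1 is high in animals 3 and 6, Mx1, Mx2, Ifit3 and Slfn4 are highest in animal 3, Lcn2 and Mmp12 are highest in animals 1 and 2, and Cyp2a3 and Mybpc3 stand apart in animal 6.

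A gene's order of animals was only as good as its probe sets. Where 2 probe sets of 1 gene passed the minimum signal (918 pairs), the median rho between them was 0.29. It was 0.14 for the 404 pairs whose brighter probe set had an SD under 0.15, and 0.75 for the 84 pairs at an SD of 0.3 to 0.5. For the 18 pairs at an SD of 0.5 or more it was 0.41. Some genes of small spread named below for a high or low rho are given with their signals, which show the size of the difference. Others are named with their rho alone, which for a small spread rests on small differences.

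Col3a1 had 475 genes that varied with it (7.08% of 6711) and 452 that varied against it (6.74%). Among them were most of the collagens. Of the 4 other fibrillar collagen genes measured 2 varied with Col3a1, and so did 6 of 10 other collagens, with none against it and median rhos of 0.84 and 0.79, where the median over all genes was 0. Without animal 6 the same counts were 2 of 4 and 6 of 10, with medians of 0.74 and 0.77 and backgrounds of 7.81% and 6.57%. The shared order was thus found among the other 6 lungs too, at a smaller spread.

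Col1a2, a chain of type I collagen, had a signal of 571 in animal 6 and of 946 to 2064 elsewhere (rho 0.96). Col5a2, which helps to set the width of collagen fibrils, went from 1934 in animal 6 to 3189 in animal 5 (rho 0.96). The 3 chains of the microfibrillar type VI collagen moved together. Col6a1 had the same order of animals as Col3a1, from 1121 in animal 6 to 1764 in animal 7 (rho 1). Col6a3 went from 1248 to 2560 and Col6a2 from 469 to 730, each at a rho of 0.96. Col12a1, a fibril-associated collagen, went from 476 in animal 3 to 977 in animal 5 (rho 0.89), Col15a1, a basement membrane collagen, from 233 to 769 (rho 0.82) and Col14a1 from 230 to 309 (rho 0.75). Col1a1, the other chain of type I collagen, had 359 in animal 6 and 1297 in animal 5 but missed the limit (rho 0.71), as did Col5a1 (rho 0.07) and the basement membrane collagen Col4a1 (rho 0.07).

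Among 28 other matrix genes 5 varied with Col3a1 and 2 against it, where 7.08% and 6.74% of all genes did. The count against it was near that share. Tnc, or tenascin C, a matrix protein of growing and injured tissue, was 77.9 in animal 6, 110 in animal 3 and 462 in animal 7 (rho 0.96, and 0.94 without animal 6). Loxl1, an enzyme that cross-links elastin, was 298 in animal 6 and 693 to 1209 elsewhere (rho 0.89). Mfap4, a protein of elastic fibres, was 1917 in animal 6, 2719 in animal 3 and up to 7863 in animal 1 (rho 0.75, and 0.60 without animal 6). Timp2 and Timp3, inhibitors of the matrix metalloproteinases, ran against Col3a1 (both rho -0.89). Timp3 was 9894 in animal 6, 8020 in animal 3 and 5679 to 6529 in the other 5. Of 13 genes that process collagen 1 varied with Col3a1 and 1 against it, both near the shares of all genes. The former was Pcolce, which helps to cut procollagen (115 in animal 6, 380 in animal 5, rho 0.86). The latter was Bmp1, the protease that Pcolce assists (rho -0.82, and -0.71 without animal 6).

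The 6 genes of highest rho with Col3a1 were Col6a1, Limd1, Cibar1 and Lig3, each at 1, and Ccdc80 and Col6a3 at 0.96. Ccdc80, a matrix protein, was 382 in animal 6 and 708 to 951 elsewhere. Lig3, a DNA ligase, ran from 409 to 569 and Limd1 from 285 to 381, differences that were small beside those of the collagens. The 4 of lowest rho, all at -1, were Tprg1l, Entrep1, Ckmt1 and Aktip. Ckmt1, the mitochondrial creatine kinase, was 991 in animal 6, 893 in animal 3 and 564 to 774 in the others. The genes just inside the limits were Cds1 at 0.75 and Etfa at -0.75, and just outside were Cd48 at 0.72 and Gtdc1 at -0.74.

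Fibroblast markers followed Col3a1 in part. Of 11 measured apart from Col3a1, 3 varied with it and 1 against it, where 7.08% and 6.74% of all genes did. The count against it was near that share. The median rho was 0.61. Without animal 6 the counts were 2 and 1, against backgrounds of 7.81% and 6.57%, and the median was 0.37. Limch1 (rho 0.86) and Tcf21, a transcription factor of lung fibroblasts (rho 0.75, and 0.60 without animal 6), went with Col3a1, as did Col1a2. Pdgfra, the PDGF receptor of fibroblasts that lie beside the alveoli, was highest in animals 6 and 3, at 4439 and 4031, and 2722 to 3381 in the other 5 (rho -0.89). The summed signal of the 15 fibroblast markers on the array was 34393 to 40059 in the diabetic and 37108 to 42068 in the normal lungs.

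Several genes under glucocorticoid control ran against Col3a1. Of 15 measured 4 varied against it and none with it, where 6.74% and 7.08% of all genes did, with a median rho of -0.61. Without animal 6 the count against it was 3 (20%, against 6.57% of all genes) and the median -0.54. Fkbp5 and Anxa1 (rho -0.77) were among these 3, and Klf9 and Tsc22d3 were not. Fkbp5, a chaperone of the glucocorticoid receptor, had its highest signal, 1498, in animal 6, then 917 in animal 3 and 682 in animal 2, and its lowest, 290, in animal 5 (rho -0.93, and -0.89 without animal 6). Klf9, a transcription factor that glucocorticoids induce, was 4763 in animal 6 and 1885 to 2532 elsewhere (rho -0.82, and -0.71 without it). Tsc22d3, the glucocorticoid-induced leucine zipper, was 5038 in animal 6 and 2682 to 3462 elsewhere (rho -0.75, and -0.60 without it). Outside the list Por, the electron donor of the P450 enzymes, was 2166 in animal 6, 1316 in animal 3 and 811 to 1056 in the others (rho -0.93), and Slc39a8, a zinc and manganese importer, was 1463, 989 and 416 to 645 (rho -0.93).

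Of the 2 measures of RNA quality, the GAPDH ratio ran against Col3a1 more closely than the beta-actin ratio did. The 3 measures per array, which are both 3' to 5' ratios and the median signal, were set against log2 signal of the 5 genes, 15 relations in all, by an exact two-sided permutation test over the 7 animals with Benjamini-Hochberg adjustment. The GAPDH ratio and Col3a1 had an r of -0.99 (exact permutation p = 0.00397, adjusted 0.0595) and a rho of -0.89 (exact permutation p = 0.0123, adjusted 0.179). Without the 2 farthest animals, 3 and 6, r was -0.76. The median signal and Col3a1 had an r of 0.78 (exact permutation p = 0.0123, adjusted 0.0923) and a rho of 0.86 (exact permutation p = 0.0238, adjusted 0.179), and without animals 4 and 7 an r of 0.75. None of the 15 passed an adjusted p of 0.05, by r or by rho. The GAPDH ratio and the median signal passed it with Col3a1 before adjustment, as no other relation did. The part of these measures in the order of the collagen genes was not tested.

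**Figure D3:**
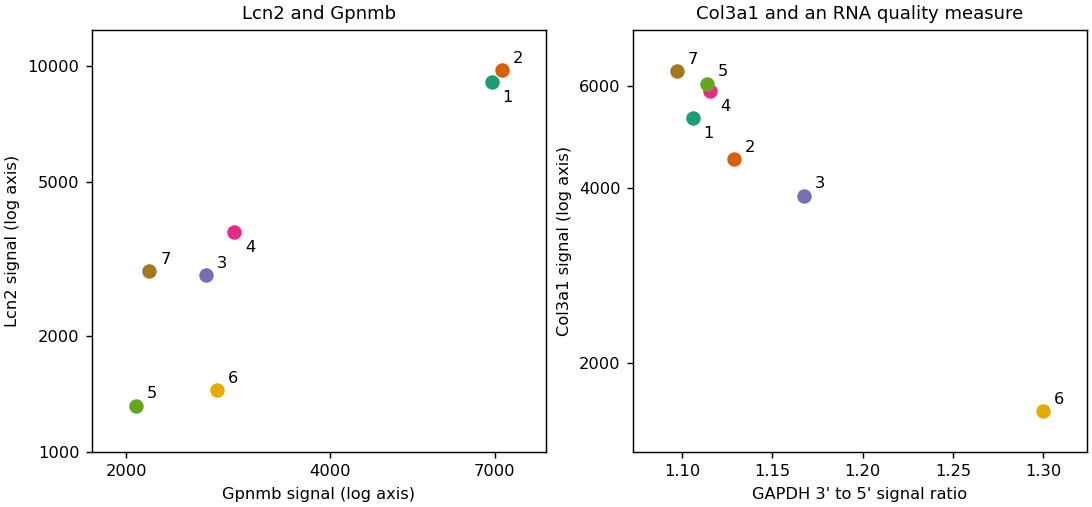
Left, Lcn2 against Gpnmb signal, and right, Col3a1 signal against the 3' to 5' signal ratio of GAPDH, with 1 numbered point for each of the 7 diabetic animals and log axes for signals. Animals 1 and 2 lie apart at the top right of the left panel, and animal 6, with a ratio of 1.30 and a Col3a1 signal of 1656, lies apart in the right panel.

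Lcn2 had 504 genes that varied with it (7.51%) and 314 against it (4.68%), and Gpnmb had 328 (4.89%) and 226 (3.37%). As the 2 genes follow nearly the same order, their genes overlapped. The 169 genes that varied with both were 33.5% of those of Lcn2 and 51.5% of those of Gpnmb.

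Of 27 lysosome and lipid-laden macrophage genes, 10 varied with Lcn2 and 1 against it, with a median rho of 0.68. Of the 26 other than Gpnmb, 7 varied with Gpnmb and none against it, with a median of 0.61, and without animal 6 the count was 12 (46.2%, against 9.37% of all genes) and the median 0.69. Lgals3, or galectin-3, a lectin of activated macrophages, was 7256 in animal 1 and 6994 in animal 2, and 2614 to 4101 in the other 5 (rho 0.89 with Lcn2, 0.75 with Gpnmb). Cd68, a lysosomal membrane protein of macrophages, was 1376 in animal 1, 1216 in animal 2 and 633 to 744 in the other 5 (rho 0.93 with Lcn2). Its rho of 0.71 put it just outside the limit with Gpnmb. Fabp5, a carrier of fatty acids, was 3231 and 3601 against 1468 to 1945 (rho 0.82 with Lcn2).

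Other genes of the list belong to the machinery of the lysosome. Ctsd, the aspartyl protease cathepsin D, was 6453 in animal 1, 7326 in animal 2 and 5383 in animal 3, and 4015 to 4353 in the other 4 (rho 0.86 with Gpnmb). Atp6v1a and Atp6v1b2, subunits of the proton pump that acidifies lysosomes, had rhos of 1 and 0.96 with Gpnmb over signals of 1556 to 2218 and 808 to 1123. Npc2, which exports cholesterol from lysosomes, was highest in animal 2 at 12187 and lowest in animal 5 at 7890 (rho 0.89), and the membrane protein Cd63 was highest in animal 2 at 5763 and lowest in animal 5 at 3996 (rho 0.89). Plin2, which coats lipid droplets, was 2482 in animal 1, 2054 in animal 2 and 1092 in animal 6 (rho 0.71 with Lcn2, under the limit). Averaged over the list, animals 1 and 2 were each 0.28 above the 7-animal mean on the log2 scale, and animal 5 was lowest at -0.23.

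Of 9 macrophage markers measured, among them Cd68, which is in the lysosome list too, 2 varied with Lcn2, and 1 of the 8 other than Gpnmb varied with Gpnmb, with median rhos of 0.43 and 0.55. Without animal 6 the counts were 2 of 9 and 2 of 8. Mertk, a receptor for apoptotic cells, was the latter, over signals of 208 to 255. Lyz2, the lysozyme of macrophages and type II cells, was highest in animal 6 at 30355 (rho -0.36 with Lcn2). The summed signal of the 10 macrophage markers on the array was 28600 to 36840 in the diabetic and 27511 to 36280 in the normal lungs. Of 15 neutrophil markers 3 were measured, 1 of which is Lcn2. S100a8 and S100a9, the calgranulins of neutrophils, were highest in animal 3, at 1444 and 4586, not in animals 1 and 2 (957 and 723 for S100a8), and had rhos of 0.50 and 0.61 with Lcn2.

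Acute phase genes followed Lcn2 in part. Of 19 other than Lcn2, 4 varied with it and 1, Cp (rho -0.75), against it, with a median rho of 0.21. Over all genes 7.51% varied with Lcn2 and 4.68% against it, and the count against it was near that share. Sod2, the mitochondrial superoxide dismutase, was 1174 in animal 1, 1086 in animal 2 and 513 in animal 6 (rho 0.89). Fgg, the gamma chain of fibrinogen, was 2705 in animal 2, 2428 in animal 1 and 1053 in animal 5 (rho 0.89), and C3, the central complement component, was 4176, 4048 and, at its lowest in animal 6, 1818 (rho 0.86). Slpi, an inhibitor of neutrophil elastase, was the fourth (rho 0.82). Cd14, the lipopolysaccharide receptor to which Lbp delivers its ligand, followed neither Lcn2 (rho 0.07) nor Lbp (rho -0.39). It was highest in animals 3 and 2, at 946 and 927, and lowest in animal 7, at 432.

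Genes of alveolar type II cells and of the respiratory chain also followed Lcn2 and Gpnmb, over small differences. Of 9 type II genes 2 varied with Lcn2 and 4 with Gpnmb, where 7.51% and 4.89% of all genes did, at median rhos of 0.64 and 0.61. Without animal 6 these counts were 6 and 5 and both medians 0.83, against backgrounds of 10.1% and 9.37%. Napsa, an aspartyl protease that matures surfactant protein, was 4547 in animal 2, 4192 in animal 1 and 2654 in animal 5 (rho 0.82 with Gpnmb). Sftpd was lowest in animal 5, at 6858 (rho 0.86), and the phosphate carrier Slc34a2 went only from 10307 to 11360 (rho 0.82). Of 28 respiratory chain genes 7 varied with Lcn2 and 1 against it, and 5 with Gpnmb, at median rhos of 0.46 and 0.625. The count against Lcn2 was near the 4.68% of all genes. Without animal 6, 13 varied with each of the 2 genes (46.4%), at medians of 0.71 and 0.69. The median SD of the list was 0.123, below that of all genes. The clock gene Bhlhe41, a repressor that mutes the clock's activators, was 867 in animal 1 and 303 in animal 5 (rho 0.93 with Lcn2).

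The 6 genes of highest rho with Lcn2 were Atp13a2, Mrpl27, Papola, Snx6, Tkt and Tmem256, all at 0.96. Atp13a2, a polyamine exporter of lysosomes, ran from 398 in animal 5 to 588 in animal 2, and Tkt, or transketolase, from 1016 to 1546. The 4 of lowest rho were Akap7, Ifnar2 and Pgrmc1 at -1 and Rrp9 at -0.99, with 1107 and 1083 for the interferon receptor chain Ifnar2 in animals 1 and 2 against 1254 to 1333 in the others. For Gpnmb the 6 were Atp6v1a, Ptpmt1 and Uimc1 at 1 and Ccnc, Kpna3 and Scamp2 at 0.96. The 4 of lowest rho, all at -0.96, were Kdr, Jarid2, Prkd2 and Trim11. Kdr, the VEGF receptor of endothelium, was lowest in animals 2 and 1, at 4047 and 4834, and highest in animal 5 at 6100. It was 1 of 9 endothelial genes to vary against Gpnmb, and the median rho of the 9 was -0.46.

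Just inside the limits with Lcn2 were Mrps26 (0.75) and Lox (-0.75), and just outside Dbi (0.71) and Dyrk2 (-0.71). For Gpnmb they were Dynll2 (0.75) and Ppfibp2 (-0.75) inside, and, beside Cd68, Fmr1 (-0.71) outside. Of the 181 genes with an SD of at least 0.5 other than Lcn2, 15 varied with Lcn2 and none against it. Over all genes 7.51% varied with Lcn2, a share near that of the 15, and 4.68% against it. Gpnmb, Spp1, Mmp12, Lgals3, Capg, Fabp5, Bhlhe41 and Rab15 were among the 15.

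Xdh had 269 genes that varied with it (4.01%) and 290 against it (4.32%). As Xdh and Col3a1 ran in opposite orders, with a rho of -0.68, genes against the former overlapped with genes that varied with the latter. The 122 shared genes were 42.1% of those against Xdh and 25.7% of those with Col3a1. Over all genes 7.08% varied with Col3a1. The 6 genes of highest rho were Oas1a, Hapstr1 and Ypel3 at 1 and Upp1, Ncaph2 and Unkl at 0.96. Oas1a, an antiviral synthetase that activates RNase L, was 1520 in animal 3, 783 in animal 6, 685 in animal 1 and 400 to 533 in the other 4. Upp1, uridine phosphorylase, was 1771 in animal 3 and 1708 in animal 6, and 862 to 1194 in the other 5. Chosen after its values were seen, Lpl, the lipoprotein lipase that frees fatty acids at the capillary wall, was 4537 in animal 3 and 4296 in animal 6, and 1874 to 3010 in the other 5 (rho 0.93, and 0.89 without animal 6).

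Other genes of oxidants and purines did not follow Xdh as a set. Of 27 measured 3 varied with it and 1 against it, with a median rho of 0.07. Cybb, the catalytic chain of the phagocyte NADPH oxidase, had a rho of 0.86 over signals of 316 to 377, and Gclm, of glutathione synthesis, of 0.75 over 202 to 255. Prdx6, a peroxiredoxin and phospholipase of lung, was 5964 in animal 3, 5101 in animal 6 and 3712 in animal 5 (rho 0.75, and 0.60 without animal 6). Sod3, the extracellular superoxide dismutase, varied against Xdh (rho -0.82), with its lowest signals, 850 and 914, in animals 6 and 3. Of 14 fasting and fatty acid oxidation genes 1, Acadl, varied with Xdh (rho 0.86, 758 to 1078).

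Smooth muscle genes ran against Xdh. Of 9 measured 5 did, with none in the other direction and a median rho of -0.75, and without animal 6 it was 6 with a median of -0.83 against a background of 5.26%. Actg2, a smooth muscle actin, was 223 in animal 3, 412 in animal 6 and 650 in animal 5 (rho -0.94). Des, or desmin, was 357 to 468 (rho -0.86), Smtn, or smoothelin, 178 to 322 (rho -0.82), Acta2 469 in animal 6, 506 in animal 3 and 570 to 721 in the others (rho -0.79), and Myl9 673 to 1160 (rho -0.75). Without animal 6 the rho of Acta2 was -0.71 and that of Myl9 -0.66. Tagln, another smooth muscle marker, was instead highest in animal 6 at 1810 and lowest in animal 3 at 906 (rho -0.32). Without animal 6 its rho was -0.77 and that of Cnn1 -0.89, so both were among the 6 then. The summed signal of the 10 markers on the array was 5252 to 7998 in the diabetic and 6065 to 7998 in the normal lungs, and none of the 9 had an SD of 0.5 or more.

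The 4 genes of lowest rho with Xdh were Ins1 at -1 and Erap1, Lmf2 and Tubb6 at -0.96. Ins1, an insulin gene, had a mean signal near the minimum of 200 in these lungs, with 202 to 349, and 194 to 416 in the normal ones. Tubb6, a tubulin chain, was 126 in animal 3, 236 in animal 6 and 312 to 460 in the others. Chosen after their values were seen, Ccl11, the chemokine eotaxin, was 284 in animal 3, 297 in animal 6 and 759 to 1093 in the other 5 (rho -0.89), and Scd, the stearoyl-CoA desaturase, was 342 to 994 with its highest signal in animal 5 (rho -0.86). Just inside the limits were Dus1l (0.75) and Maz (-0.75), and just outside were Steap2 (0.71) and Il9r (-0.74). Cyp2e1, high in the same 2 lungs as Xdh, had a rho of 0.57 with it, as the other 5 animals did not share an order.

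Lbp had 178 genes that varied with it (2.65%) and 124 against it (1.85%), the fewest of the 5. Its order among animals other than 6 rested on signals of 465 to 551. None of 19 acute phase genes passed the limit in either direction, with a median rho of -0.07, and neither did any of 15 glucocorticoid genes (0.11), 14 heat shock genes (0.23) or 9 type II genes (0.07). With Pearson's r, which weighs the distance of animal 6, the heat shock median was 0.78. Without animal 6 the rho medians were -0.14 for glucocorticoid, -0.09 for heat shock and -0.20 for type II genes, and 3 of the 14 heat shock genes varied against Lbp (21.4%, against 3.67% of all genes). Of 3 red cell genes measured 2 varied against Lbp. Alas2, the first enzyme of haem synthesis in red cell precursors, was 541 in animal 6 and 1127 to 1868 elsewhere (rho -0.89, and -0.83 without animal 6), and Hbb, a globin gene, was 18904 in animal 6 and up to 25646 in animal 2 (rho -0.89). The 6 genes of highest rho were Polr2m at 1, Marchf5, Mfng, Ppan and Trappc13 at 0.96 and Utp4 at 0.93, and the 4 of lowest were Atp2c1, Strbp and Zdhhc3 at -0.96 and H1f10 at -0.94. Utp4, of ribosome assembly, was 837 in animal 6 and 668 to 729 elsewhere. Just inside the limits were Blvra (0.75) and Las1l (-0.75), and just outside were Tagln2 (0.71) and Zmiz2 (-0.72).

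Inmt, a methyltransferase of lung that N-methylates indoles, was the only gene with an SD of at least 0.5 to vary with Lbp (rho 0.75, and 0.60 without animal 6). It was 10135 in animal 6, 7521 in animal 1 and 3091 in animal 5, and it also varied with Xdh (rho 0.79). Over all genes 4066 passed the limit with none of the 5 genes, 2132 with 1 and 514 with 2, and none with 3 or more.

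**Figure D4:**
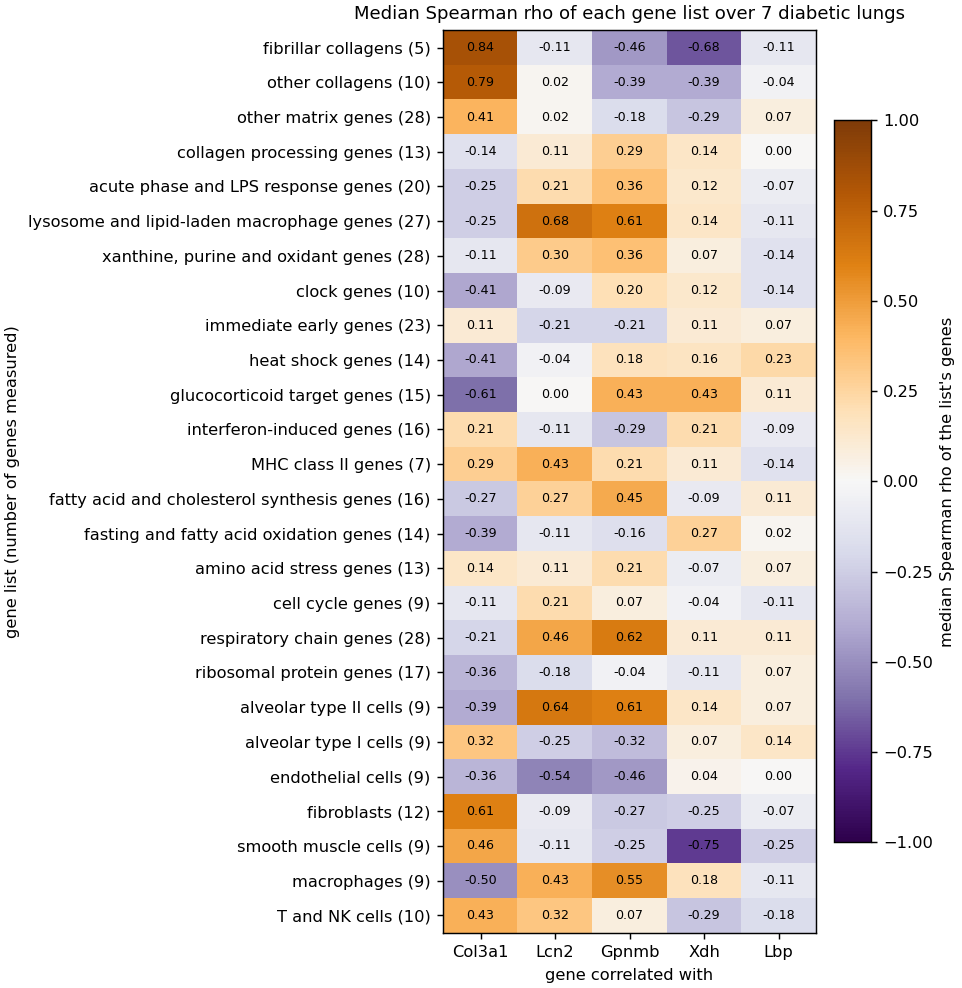
Median Spearman rho over the 7 diabetic lungs of the genes of each list (rows, with the number measured, for each list of at least 5) with each of the 5 genes (columns), where a gene of the 5 is left out of its own column. The collagens stand out with Col3a1 (0.84 and 0.79) and smooth muscle genes against Xdh (-0.75), while the Lbp column holds no median beyond 0.23 or -0.25. With Gpnmb the medians of lysosome (0.61), alveolar type II (0.61) and respiratory chain genes (0.625) are close. With Lcn2 they are 0.68, 0.64 and 0.46.

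Among lists of 5 or more measured genes, that of interferon-induced genes had the widest spread of its mean level. Of its 16 measured genes 11 had an SD of at least 0.5, against 2.71% of all genes, and its median SD was 0.61. Averaged over the list, animal 3 was 0.99 and animal 1 0.43 above the 7-animal mean on the log2 scale, while animal 2 was at -0.60 and animal 6 at -0.69. The SD of this level was 0.58 in the diabetic and 0.14 in the normal lungs. Irf7, the master transcription factor of the response, was 3010 in animal 3, 1708 in animal 1, 662 in animal 2 and 733 in animal 6. Rsad2, or viperin, was 2712 in animal 3 and 324 in animal 6, and Gbp2, a GTPase induced by interferon gamma, was 1602, 362 and, in animal 1, 1488. Psmb9, a subunit of the immunoproteasome, and Tap1, the peptide transporter of antigen presentation, were highest in animal 1, at 2090 and 1129, and lowest in animal 6, at 606 and 417. Only Oas1a of the list varied with Xdh, and none varied with or against Col3a1, Lcn2, Gpnmb or Lbp. The median rho of the list with Xdh was 0.21, and 0.60 without animal 6. Without that animal 2 of the 16 varied against Lcn2 and 1 against Gpnmb, where 7.00% and 6.60% of all genes did. The count against Gpnmb was near that share.

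Lymphocyte and antigen presentation genes were lowest in animal 6. Averaged over 10 T and NK cell genes animal 6 was at -0.91 on the log2 scale, with the other 6 between -0.04 and 0.35, and over 7 MHC class II genes it was at -0.92 against -0.17 to 0.38. Gzmb, the granzyme of cytotoxic cells, was 98.0 in animal 6 and 259 to 524 elsewhere, and Prf1, or perforin, 226 against 411 to 686. Lck, the kinase of the T cell receptor, was 422 against 714 to 1123. RT1-Da, a class II chain, was 3381 against 5362 to 8403, and Cd74, the invariant chain, 7482 against 10021 to 11769. The normal lungs had SDs of 0.15 and 0.19 for these 2 levels, and the diabetic ones of 0.42 and 0.44. The summed signal of the 13 T and NK cell markers on the array was 3589 to 7310 in the diabetic and 5873 to 7182 in the normal lungs.

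Heat shock genes were highest in the same animal. Over 14 genes animal 6 was at 0.55 on the log2 scale, with the other 6 between -0.19 and 0.08. Hspa1a, the inducible HSP70, was 3672 in animal 6 and 644 to 1172 elsewhere, and 640 to 762 in the normal lungs. Hsph1, a nucleotide exchange factor of HSP70, was 2803 against 1026 to 1734, and its co-chaperones Dnaja1 and Dnajb1 were 3534 against 1393 to 2330 and 1198 against 532 to 823. Hspa5, the chaperone of the endoplasmic reticulum, was not among the high ones, with 2462 in animal 6 and 2159 to 3446 elsewhere. Animal 6 thus held the lowest collagen, lymphocyte and class II levels and the highest heat shock level of the 7, together with the highest 3' to 5' ratios, whose part in these levels was not tested.

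**Figure D5:**
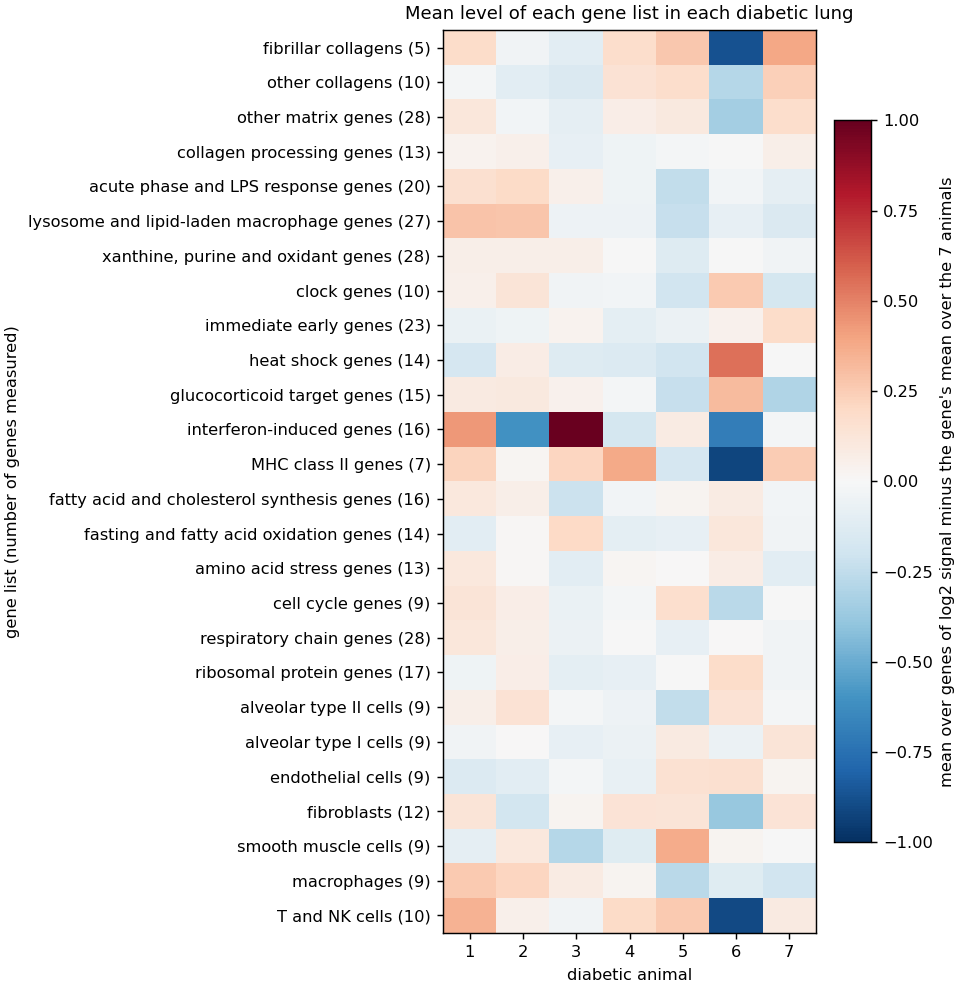
Mean level of each gene list with at least 5 measured genes (rows) in each of the 7 diabetic animals (columns), as log2 signal minus the gene's mean over the 7, averaged over the list. Interferon-induced genes are highest in animal 3 (0.99), lysosome genes in animals 1 and 2 (0.28 each), and animal 6 is lowest for fibrillar collagens (-0.87), MHC class II (-0.92) and T and NK cell genes (-0.91) and highest for heat shock genes (0.55).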

How the data were processed

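RNA of 12 rat lungs was hybridized to Affymetrix RAE 230A arrays, 1 array per animal without pooling. The deposited signals are an intensity per probe set on a linear scale, which the authors computed with MAS 5.0. On each array the mean with 2% trimmed at each end was 500.1. Values were used as given, on the log2 scale, and 1 value at or below 0 was set to 0.1. After removal of 57 control probe sets, names came from Entrez IDs for 12748 probe sets, from accessions for 2 and from the annotation's symbol for 33, in the names of RefSeq for GRCr8. Probe sets with several genes (312) or none (2771) were left out. SD, Spearman's rho and exact permutation tests were computed with python 3.11.15, numpy 2.4.6, scipy 1.17.1 and pandas 2.3.3 in code tested on simulated data, and figures drawn with matplotlib 3.10.9. With 7 arrays, precision is limited by their number. Present calls and the authors' own comparisons were not used here.

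The members, lists, limits and tests were chosen with earlier results of these data known. Named were the 5 genes, the 20 of largest SD and the next, the 6 highest and 4 lowest rhos per gene, the genes beside each limit, up to 4 genes of largest absolute rho per list described beside it, every gene past the limit in lists of 10 or fewer measured genes, and beta-actin and GAPDH. Chosen after their values were seen were Alas2, Angptl4, Bhlhe41, Capg, Ccl11, Cd74, Col4a1, Ctsd, Ctss, Des, Dnaja1, Dnajb1, Fabp5, Gbp2, Gzmb, Hbb, Hspa1a, Hsph1, Il1b, Inmt, Lck, Lgals3, Lpl, Lyz2, Mfap4, Napsa, Nr1d1, Per2, Plin2, Por, Prf1, Psmb9, Rsad2, RT1-Da, Scd, Slc39a8, Smtn, Tagln, Tap1 and Tsc22d3, and the counts without diabetic animal 6. Alternatives covered scaling, a pseudocount of 64, the minimum signal, the probe sets of a gene, the measures and limits, and leaving out each animal.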

Additional observations from a re-analysis of the deposited data

Results flagged for a closer look

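Values are listed here in which 1 of the 7 diabetic lungs lay far from the rest, measured as the gap to its neighbour divided by the whole range. A gap above Dixon's 95% critical value is found by chance in about 1 in 20 such groups. Over all 6712 genes it was found for 563 (8.39%), and in 316 of these (56.1%) the animal was 6. Of the 192 genes chosen by name it was found for 22.

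Animal 6 was far below the others for Col3a1 (a gap of 0.634 of the range), Ccdc80 (0.677), Cibar1 (0.58), Loxl1 (0.603), Mybpc3 (0.81), Cd74 (0.645), Gzmb (0.579) and Alas2 (0.592). It was far above them for Lbp (0.758), Cyp2a3 (0.671), Klf9 (0.682), Tsc22d3 (0.595), Utp4 (0.612), Hspa1a (0.656) and Hspb8 (0.65). The mean level of a list set it apart for fibrillar collagens (0.611, low), MHC class II genes (0.579, low), T and NK cell genes (0.693, low) and heat shock genes (0.636, high). The same held for its GAPDH 3' to 5' ratio (0.654, high) and its mean r with the other diabetic arrays (0.672, low). The part of RNA quality in these gaps was not tested.

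Other animals stood apart less often. Animal 5 was lowest for Col5a1 (0.589), Cxcl1 (0.586) and Uimc1 (0.726), animal 3 was lowest for Actg2 (0.575) and for the level of fatty acid and cholesterol synthesis genes (0.572) and highest for Angptl4 (0.639), animal 2 was lowest for Ogfr (0.764) and animal 4 for Vps33a (0.728).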

How the results depend on the processing

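No paired analysis was possible because the values come from the diabetic lungs alone, with no test between groups. No rho at or past the limit changed its sign. As such rhos were chosen for their size, they were far from a change of sign, and this check says little. Smaller rhos were outside it, and some of them did change sign. That of Col3a1 with Lbp went from -0.04 to 0.54 without animal 6. That of Lcn2 with Lbp went from -0.21 to 0.26 without animal 2. A higher limit of rho, 0.85, left 222 genes with and 194 against Col3a1, 229 and 129 for Lcn2, 121 and 91 for Gpnmb, 118 and 100 for Xdh and 55 and 44 for Lbp. A minimum mean signal of 500, which tests fewer genes, left 245 with Col3a1, 197 against Lcn2, 126 against Gpnmb, 168 with and 164 against Xdh, 92 with and 62 against Lbp and 99 genes with an SD of at least 0.5. Without a minimum these were 736 with Col3a1, 512 against Lcn2, 429 against Gpnmb, 488 against Xdh, 268 with and 221 against Lbp and 1661 by SD. Pearson's r in place of rho gave 745 with Col3a1, 451 against Xdh and 462 with and 459 against Lbp. It also moved Col3a1 with Lcn2 to 0.33, with Gpnmb to 0.016 and with Lbp to -0.81, and Lcn2 with Lbp to -0.48. Centring the arrays on their medians gave 706 against Col3a1. A pseudocount of 64 left 112 genes by SD, and the SD in excess of that of genes of like signal 68. The cause of these moves was not tested. Of the 20 genes of largest SD, 14 remained with the pseudocount, 10 at the higher minimum, 9 by a scaled MAD and none without a minimum.

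Leaving out 1 animal, which makes a rho of 0.75 easier to reach with 6 points, gave 524 to 659 genes with and 441 to 649 against Col3a1, and 521 to 678 with and 345 to 494 (without animal 5) against Lcn2. For Gpnmb it gave 334 to 629 with and 278 to 443 against, both highest without animal 6. For Xdh it gave 339 to 519 with and 349 to 586 against, and for Lbp 240 to 386 with and 197 to 292 against, all highest without animal 2. By SD it gave 124 (without animal 6) to 210 genes. The rho of Col3a1 ran from -0.31 to 0.43 with Lcn2, from -0.60 to -0.14 with Gpnmb, from -0.89 to -0.54 with Xdh and from -0.26 to 0.54 with Lbp. That of Lcn2 ran from 0.77 to 0.94 with Gpnmb, from -0.71 to 0.14 with Xdh and from -0.49 to 0.26 with Lbp. That of Gpnmb ran from -0.37 to 0.49 with Xdh and from -0.26 to 0.49 with Lbp, and that of Xdh from 0.086 to 0.89 with Lbp. Without animal 1, 2 of the 15 relations with array measures passed an adjusted p of 0.05 by the exact permutation test, and without any other single animal 0 did.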

Other observations

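Of 10 genes of the circadian clock measured 3 had an SD of at least 0.5 among the diabetic lungs, against 2.71% of all genes. The mean level of the 10 had an SD of 0.16 on the log2 scale in the diabetic and 0.09 in the normal lungs. Nr1d1, the repressor REV-ERB alpha, was 645 in animal 6, 567 in animal 1 and 157 in animal 4, with 65 to 143 in the normal lungs. Per2, a repressor of the clock's core activators, was 614 in animal 6, 588 in animal 4, 552 in animal 2 and 193 in animal 3, so that animal 4 was low for the former and high for the latter.

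Chosen after their values were seen, Il1b, the cytokine interleukin 1 beta, and Ctss, the cathepsin of antigen-presenting cells, had the same order of animals. Il1b was 1181 in animal 3 and 384 in animal 5, and Ctss was 2967 in animal 3 and 1440 in animal 5. Both had a rho of -0.93 with Col3a1 and of 0.79 with Xdh. Without animal 6 the rho of both with Xdh was 0.66, under the limit. Angptl4, an inhibitor of lipoprotein lipase, was 589 in animal 3 and 175 to 272 elsewhere.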
